A study of Mus musculus with 38 samples.

Results

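The regions described here are 1749 ATAC-seq peaks of mouse cells reprogrammed with the wild-type form of SALL4 (SALL4-WT). ATAC-seq marks open chromatin, where a transposase can cut the DNA. Members were chosen by their measured ATAC-seq peaks, so their day 9 and day 11 ATAC-seq pattern is a description and no finding. A region was taken when its day 11 SALL4-WT peak had a score of at least 100, overlapped a day 9 SALL4-WT peak by at least 1 bp, and overlapped no peak in the starting fibroblasts (MEFs) or in cells with SALL4-delN12 at day 9 or day 11. The score is the p-value of the peak caller on a minus log10 scale, multiplied by 10. Of 89245 peaks in the day 11 SALL4-WT list, 48715 reached the score minimum, 45212 of these had a day 9 peak, 6335 of those had no MEF peak, and 1749 of those had no late SALL4-delN12 peak. The members thus were 3.59% of the day 11 peaks above the minimum and 27.6% of the late peaks that MEFs lacked.

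The cells were MEFs from E13.5 embryos of OG2 males and 129S4/SvJaeJ females, infected with retrovirus that carried SALL4 alone. SALL4-delN12 lacks the N-terminal stretch of amino acids through which SALL4 recruits NuRD. All infected groups were kept in the same medium, iCD3, without BMP4, and were sampled at days 1, 5, 9 and 11 for ATAC-seq and RNA-seq, and at day 6 for CUT&Tag of SALL4 and of H3K27ac. Untreated MEFs were measured by ATAC-seq. The transgene was driven by a retroviral vector in a mixed culture, and a signal averaged over the culture cannot tell fewer cells of a type from less signal per cell. Every condition had 1 peak list or 1 RNA library, so no test was made, no replicate error can be given, and every difference below is between these libraries. Intervals given with shares are exact Clopper-Pearson intervals at 95% and cover counting error only.

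SALL4 is a zinc-finger transcription factor of early embryos and germ cells. Its N-terminus binds NuRD, a complex that removes acetyl groups from histones and remodels nucleosomes, and that is best known for closing chromatin. H3K27ac is a histone mark of active promoters and enhancers. CUT&Tag cuts and tags the DNA next to an antibody-bound protein, so that a peak marks where SALL4 or H3K27ac was found.

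The sites were short and mostly far from promoters. Their median width was 253 bp (56 to 1485 bp) and their median score was 132.33, against 212.16 for all day 11 SALL4-WT peaks above the minimum. The late sites specific to SALL4-delN12, described below, were alike in both, with medians of 256.5 bp and 130.9. Of the members, 1153 had a score between 100 and 150, 249 reached 200 and 38 reached 300. The rule cut through a continuum, since 4382 further peaks met every criterion but the score. Just inside the threshold were peaks near Pth2r and Oaf, both of score 100.05, and near Gm12830 of score 100.07. Just outside were peaks near Plcb4 (99.93), Pkdcc (99.9) and Plekhm3 (99.84). A MEF peak lay within 500 bp of 188 members and a late SALL4-delN12 peak within 500 bp of 235.

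The sequences below are 200 bp around the centre of the highest-scoring member and of the members near Cobll1, Efemp1 and Alpl, which carry the RNA results given later. They are the plus strand of the mm10 genome (GRCm38.p6, RefSeq). Capitals mark letters of the AP-1 motif TGANTCA, the NFI motif TTGGCA, the orphan nuclear receptor motif AAGGTCA, the E-box CAGCTG or the C/EBP motif TTGCACA, on either strand. A match is a description of letters and not of a bound factor.
Dip2c intron, chr13:9578477-9578676: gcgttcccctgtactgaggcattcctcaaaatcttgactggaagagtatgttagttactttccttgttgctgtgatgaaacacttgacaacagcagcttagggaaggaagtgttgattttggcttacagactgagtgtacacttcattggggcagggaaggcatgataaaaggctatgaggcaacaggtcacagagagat
Cobll1 intron, chr2:65218440-65218639: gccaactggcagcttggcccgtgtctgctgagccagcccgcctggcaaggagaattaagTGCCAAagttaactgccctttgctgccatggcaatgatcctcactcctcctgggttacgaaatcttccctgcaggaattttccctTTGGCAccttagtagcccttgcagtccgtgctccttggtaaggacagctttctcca
Cobll1 intron, chr2:65220661-65220860: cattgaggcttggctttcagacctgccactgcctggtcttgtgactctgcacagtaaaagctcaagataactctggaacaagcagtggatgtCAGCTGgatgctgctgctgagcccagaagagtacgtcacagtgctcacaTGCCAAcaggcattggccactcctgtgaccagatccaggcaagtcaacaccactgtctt
Cobll1 upstream, chr2:65293539-65293738: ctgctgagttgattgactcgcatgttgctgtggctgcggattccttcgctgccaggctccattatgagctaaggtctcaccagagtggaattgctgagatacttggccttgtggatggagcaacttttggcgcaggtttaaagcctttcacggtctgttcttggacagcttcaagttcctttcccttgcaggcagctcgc
Cobll1 upstream, chr2:65294220-65294419: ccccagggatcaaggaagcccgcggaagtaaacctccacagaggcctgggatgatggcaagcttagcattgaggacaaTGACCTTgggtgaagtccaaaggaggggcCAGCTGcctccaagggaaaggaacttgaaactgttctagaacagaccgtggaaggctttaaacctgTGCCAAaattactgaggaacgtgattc
Efemp1 intron, chr11:28911634-28911833: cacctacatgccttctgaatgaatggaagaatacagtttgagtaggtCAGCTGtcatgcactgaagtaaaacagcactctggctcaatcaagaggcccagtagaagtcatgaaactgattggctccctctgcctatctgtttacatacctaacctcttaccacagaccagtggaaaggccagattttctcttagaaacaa
Efemp1 downstream of the start, chr11:28993481-28993680: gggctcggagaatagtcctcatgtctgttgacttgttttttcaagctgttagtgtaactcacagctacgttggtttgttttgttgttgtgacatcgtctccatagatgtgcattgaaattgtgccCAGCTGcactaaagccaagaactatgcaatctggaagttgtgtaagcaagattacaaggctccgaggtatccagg
Alpl intron, chr4:137757663-137757862: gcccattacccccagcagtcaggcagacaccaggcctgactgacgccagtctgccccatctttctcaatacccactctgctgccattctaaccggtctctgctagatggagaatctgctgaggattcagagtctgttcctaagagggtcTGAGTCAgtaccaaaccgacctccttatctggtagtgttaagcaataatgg
Alpl intron near a start, chr4:137770917-137771116: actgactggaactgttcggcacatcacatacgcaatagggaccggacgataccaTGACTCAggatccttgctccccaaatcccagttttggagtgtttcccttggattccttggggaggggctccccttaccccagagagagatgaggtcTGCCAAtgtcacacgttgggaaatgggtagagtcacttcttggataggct
The highest-scoring member and 1 of the Cobll1 members held none of the 5 motifs. The Cobll1 intron member of score 329.03 held 2 NFI matches, and the upstream member of score 210.66 held an NFI, an orphan receptor and an E-box match. Both Efemp1 members held the E-box, and both Alpl members held an AP-1 match.

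By their centre, 956 members (54.7%) lay in introns and 635 (36.3%) between genes. Another 57 lay in coding exons, 51 in UTRs and 50 in non-coding exons. Promoters, taken as 2 kb to each side of any annotated transcription start, held 285 members (16.3%, interval 14.6 to 18.1), where 42.1% of all day 11 SALL4-WT peaks above the minimum lay in them. With the starts of protein-coding genes alone, the members' share was 6.69%. The median distance to a protein-coding start was 25.5 kb, against 11.9 kb for all those peaks. Promoter shares were 18.5% at the 2835 late sites that opened in both forms and 11.9% at the 1016 late sites specific to SALL4-delN12, which were found by the mirrored rule. The members were spread over 20 chromosomes, with 27 on chromosome X and 1 on an unplaced scaffold, and only 47 neighbouring pairs were under 10 kb apart. Their median GC content was 51.2%, between 53.2% for all the peaks and 47.0% for the SALL4-delN12-specific sites.

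Most of these sites were not new at day 9. In SALL4-WT, 1574 members (90.0%, interval 88.5 to 91.4) already had a day 5 peak, where 94.4% of all the day 11 peaks did, and 825 (47.2%, 44.8 to 49.5) had a day 1 peak, where 76.1% did. Of the members, 777 had a peak at day 5 but not at day 1, and 147 had one at neither day. The name late thus describes the libraries the rule used and not the time of first opening. At the 1574 members the median day 5 score was 149.65, and at the 825 members the median day 1 score was 95.7. The day 9 score was above the day 11 score at 611 members.

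In SALL4-delN12, 578 members (33.0%, 30.8 to 35.3) had a day 1 peak and 504 (28.8%, 26.7 to 31.0) a day 5 peak, where 80.5% and 83.5% of all the day 11 SALL4-WT peaks did. Either day had a peak at 785 members (44.9%), of which 281 had it at day 1 alone, 207 at day 5 alone and 297 at both. The remaining 964 members (55.1%) had no SALL4-delN12 peak at any day. No early peak of either form was found at 113 members (6.46%). The SALL4-delN12-specific sites had a day 1 peak of SALL4-delN12 at 40.7% and of SALL4-WT at 5.22%, with a day 5 SALL4-delN12 peak at 67.1% and a day 5 SALL4-WT peak at 122 of 1016 sites.

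**Figure D1:**
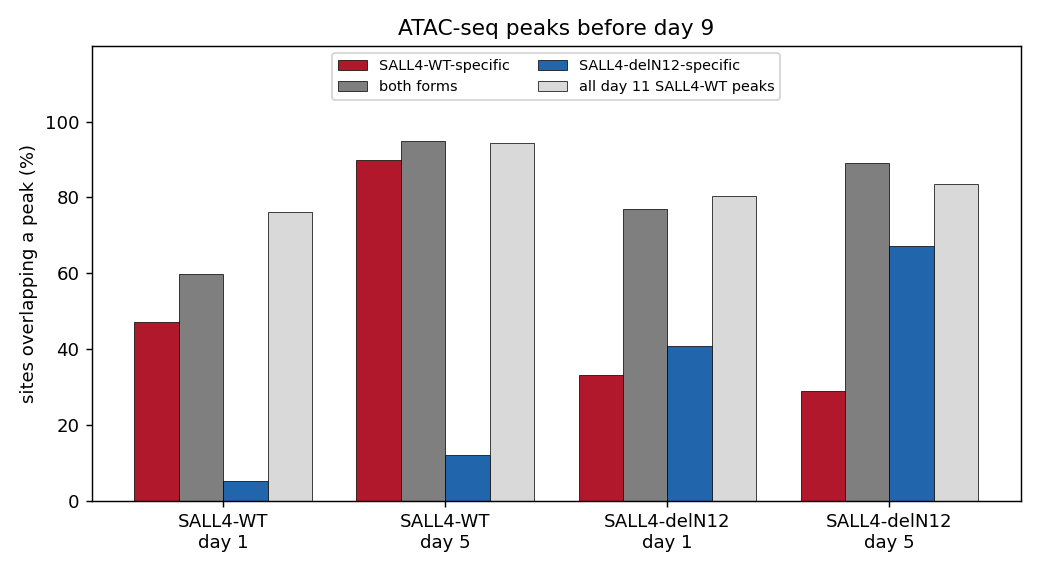
Share of sites (y axis, percent) that overlapped an ATAC-seq peak of each early library (x axis), for the 4 sets of sites in the legend, 1 peak list per library. The SALL4-WT-specific sites reached 90.0% in the day 5 SALL4-WT list and 28.8% in the day 5 SALL4-delN12 list.

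The highest-scoring member, chr13:9578415-9578739, lay in an intron of Dip2c. Its SALL4-WT scores on days 1, 5, 9 and 11 were 79.32, 667.56, 389.47 and 653.49. In SALL4-delN12 its day 1 score was 215.04 and its day 5 score 55.83, with no peak later. The site thus was called in all 4 early libraries, and its score was lower in SALL4-WT at day 1 and higher at day 5. It overlapped SALL4 in both forms (scores 200.21 and 116.45) and no H3K27ac peak. The second, chr11:35750501-35751050, lay 18.7 kb upstream of Pank3, a pantothenate kinase of coenzyme A synthesis, and scored 604.67 at day 11. Its day 5 scores were 585.77 in SALL4-WT and 118.48 in SALL4-delN12. The others of the 10 highest scored from 380.24 to 470.49 and lay nearest to Mms22l, Ppp2r1b, Ccdc6, Dclk1, Slit2, Dhrs3, Proz and Runx1t1. Those near Ppp2r1b, Dhrs3 and Proz lay within 2 kb of an annotated transcription start, though 14.2 to 67.6 kb from the nearest protein-coding start. The members nearest to Mms22l, Slit2 and Runx1t1 lay beyond 100 kb of the starts of these genes. The member nearest to Slit2, which encodes an axon guidance ligand, had a day 5 SALL4-WT peak but no other early or CUT&Tag peak.

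At day 6, SALL4 was found at the members mainly in the wild-type form. A SALL4 peak of SALL4-WT overlapped 1235 members (70.6%, interval 68.4 to 72.7), where 73.7% of all day 11 SALL4-WT peaks above the minimum had one. A SALL4 peak of SALL4-delN12 overlapped 413 (23.6%, 21.6 to 25.7), where 58.6% of all the peaks had one. The lists were of like length, with 69475 and 67310 peaks, and with both at 67310 peaks the members' shares were 69.7% and 23.6%. SALL4 peaks were in SALL4-WT alone at 890 members, in both forms at 345, in SALL4-delN12 alone at 68 and in neither at 446. At the sites of both forms the shares were 79.8% and 69.2%. At the SALL4-delN12-specific sites they were 26.6% and 67.3%. The share with a SALL4-delN12 SALL4 peak thus was lower at the members than in each of the 3 compared sets. The members were chosen to lack late SALL4-delN12 ATAC-seq peaks. The sites of both forms and the SALL4-delN12-specific sites were chosen to have them. This order therefore cannot be read apart from the choice of the sets.

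H3K27ac was found at few of the members. A SALL4-WT H3K27ac peak overlapped 264 (15.1%, 13.4 to 16.9), where 42.2% of all the day 11 peaks had one, and a SALL4-delN12 H3K27ac peak overlapped 421 (24.1%, 22.1 to 26.1), where 69.5% did. At the sites of both forms the SALL4-WT and SALL4-delN12 shares were 25.2% and 63.4%. At the SALL4-delN12-specific sites they were 4.72% and 34.4%, so the SALL4-WT share was lower there than at the members. The H3K27ac lists were unequal, with 19841 peaks in SALL4-WT and 45599 in SALL4-delN12. With the longer list reduced to its 19841 highest scores, the SALL4-delN12 share was 7.66%, under the SALL4-WT share of 15.1%, so that the order of the forms depends on list length. Over all the day 11 peaks the same step gave 44.4% for SALL4-delN12 and 42.2% for SALL4-WT. H3K27ac of SALL4-WT was at 240 of the 1235 members with a SALL4-WT SALL4 peak (19.4%) and at 24 of the 514 without (4.67%). Among members with a day 5 SALL4-delN12 peak, SALL4-delN12 H3K27ac was at 162 of 504 (32.1%), and among the others at 259 of 1245 (20.8%).

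**Figure D2:**
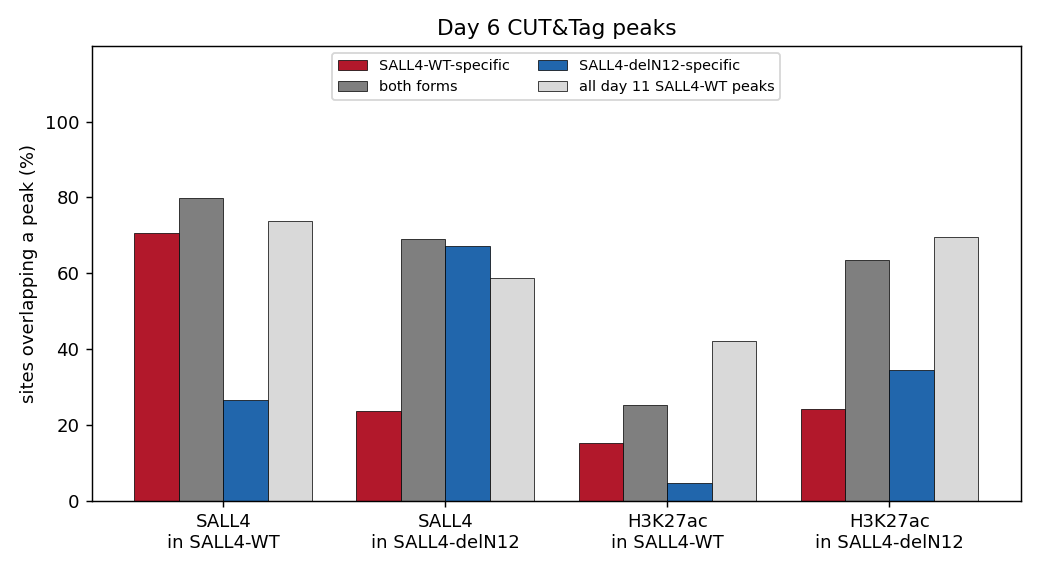
Share of sites (y axis, percent) overlapping each day 6 CUT&Tag peak list (x axis), for the same 4 sets of sites, 1 list per antibody and form with the authors' replicates merged. The SALL4-WT-specific sites stood at 70.6% for SALL4 in SALL4-WT and 23.6% in SALL4-delN12, and the 2 H3K27ac lists differ in length.

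Of the 240 members with both SALL4 and H3K27ac in SALL4-WT, the highest was chr9:50835000-50835428 near Ppp2r1b, a scaffold subunit of protein phosphatase 2A. It had a SALL4 score of 246.42 and an H3K27ac score of 59.65 in SALL4-WT, and no SALL4 peak but an H3K27ac score of 75.77 in SALL4-delN12. Next was chr3:55344392-55344778 in an intron of Dclk1, a microtubule-associated kinase, with a SALL4 score of 354.04. None of the 10 highest of these members had a SALL4-delN12 SALL4 peak. Of all members 23.6% had one, and of all day 11 SALL4-WT peaks above the minimum 58.6%. The share among the 240 was not counted, so the 10 are not set apart by this. The others of the 10 lay near Dhrs3, Tspyl3, Dpys, Rcc1l, Slc35b1, Cct3, Kmt5b and Bmpr2. Bmpr2 encodes a type II BMP receptor, and its member had no peak in any SALL4-delN12 list.

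RNA was compared for the nearest protein-coding genes within 100 kb. A nearest gene was found for 1436 members, which gave 1288 genes (1230 of them in the RNA table), of which 1159 had 1 member, 111 had 2, 17 had 3 and 1 had 4. Differences are log2(FPKM + 1), SALL4-WT minus SALL4-delN12, of genes with FPKM of at least 1 in either library of a day. Day 1 had a median difference of 0.04, days 5 and 9 had 0.10 each, and day 11 had 0.17. Over all protein-coding genes the medians on those 4 days were 0.03, 0.01, -0.03 and -0.01. At day 11, 105 of 922 nearest genes (11.4%) were higher in SALL4-WT by a log2 of 1 or more, where 6.05% of protein-coding genes were, and 33 (3.58%) were lower by as much, where 6.25% were. At day 9, 89 of 906 (9.82%) were higher against 5.66%, and 39 (4.30%) were lower against 5.76%. At day 5, 83 of 895 (9.27%) were higher against 4.84%, and 31 (3.46%) were lower against 4.44%. At day 1, 49 of 856 (5.72%) were higher against 5.13%, and 39 (4.56%) were lower against 3.77%. The members' shares were thus within 1 percentage point of the background at day 1, and the share higher in SALL4-WT was above it in each of the 3 later pairs of libraries. The sizes depend on the settings. With a pseudocount of 0.1, the day 9 shares were 13.1% higher against 8.10% and 7.28% lower against 8.75%. With a score minimum of 200, the shares higher were 17.6% at day 5 and 17.3% at day 9 (136 and 139 genes), and at day 1 they were 8.53% higher and 2.33% lower (129 genes), farther from the background than with all members.

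Genes nearest to the SALL4-delN12-specific sites leaned the other way, with 6.07% higher and 12.5% lower in SALL4-WT at day 11. Those nearest to the sites of both forms had 9.88% higher and 6.06% lower. For genes with a member in a SALL4-WT SALL4 peak the day 11 median was 0.17 (673 genes), and for those without it was 0.13 (249 genes). By distance of the closest member, the day 11 share higher was 12.5% within 10 kb, 10.2% from 10 to 50 kb and 13.3% from 50 to 100 kb. Genes with several members had a day 11 median of 0.23 and those with 1 member 0.15. The shares higher by a log2 of 1 were alike, at 12 of 106 (11.3%) and 93 of 816 (11.4%), and 1 (0.943%) and 32 (3.92%) were lower.

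**Figure D3:**
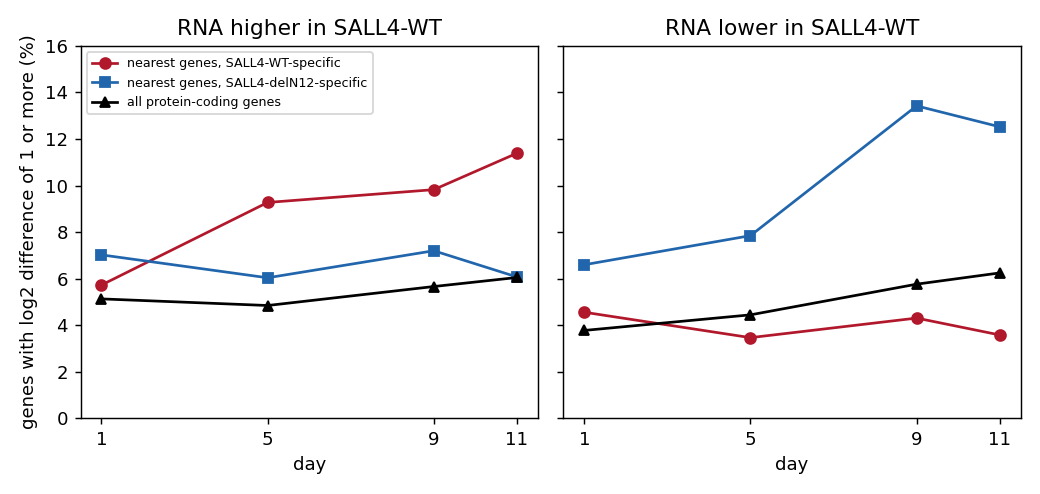
Share of genes (y axis, percent) whose RNA was higher (left) or lower (right) in SALL4-WT by a log2 of 1 or more at each day (x axis), with 1 library per form and day. Genes nearest to the SALL4-WT-specific sites reached 11.4% higher at day 11, and genes nearest to the SALL4-delN12-specific sites 12.5% lower.

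Among nearest genes with FPKM of at least 5 at day 9 or 11 in either form, 338 were higher in SALL4-WT on both days and 184 were lower on both, of 668 (50.6% and 27.5%), where 35.6% and 39.7% of the 8647 protein-coding genes at that FPKM were. Higher by a log2 of 1 on both days were 53 (7.93%), where 4.10% of the 9514 genes of all types at that FPKM were, and lower were 15 (2.25%), where 3.73% were. The largest mean difference over both days was that of Efemp1. This gene, which encodes fibulin-3, had 5.02, 17.6, 20.8 and 43.2 FPKM at days 1, 5, 9 and 11 in SALL4-WT. In SALL4-delN12 it stayed between 2.01 and 3.24 FPKM. Its members lay 3.93 kb upstream of a start and 77.9 kb downstream. Postn, which encodes periostin, had 53.3, 124, 78.8 and 118 FPKM in SALL4-WT and 24.3, 11.7, 17.4 and 18.6 in SALL4-delN12. It was higher in SALL4-WT on each day, and it was chosen by its differences at days 9 and 11. Prg4, which encodes the joint lubricant lubricin, had 7.93 to 14.4 FPKM in SALL4-WT and 0.462 to 1.02 in SALL4-delN12.

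Alpl, the tissue-nonspecific alkaline phosphatase, had 0.957, 38.4, 30.03 and 33.9 FPKM in SALL4-WT and 0.109, 2.45, 3.28 and 5.74 in SALL4-delN12. Both of its members overlapped SALL4 of SALL4-WT and neither overlapped SALL4 of SALL4-delN12 nor H3K27ac. Kng2, a kininogen gene with a member 65 bp from its start, had 1.79, 44.0, 65.6 and 94.9 FPKM in SALL4-WT and 0.971, 9.77, 5.64 and 14.9 in SALL4-delN12. Nnmt, nicotinamide N-methyltransferase, had 37.5 against 5.81 FPKM at day 11, and Cck, the peptide hormone cholecystokinin, 60.7 against 7.51. Bmper, a secreted modulator of BMP signalling, had 6.88 against 0.74 FPKM, and Areg, an EGF receptor ligand, 2.94 against 0.557. Olfm2 had 5.09 against 0.144 FPKM. For every one of these 10 genes both late days pointed to SALL4-WT, as the choice of genes required.

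Of the 12 members near these 10 genes, 11 had a day 5 SALL4-WT peak, 10 a SALL4 peak of SALL4-WT, 4 a SALL4 peak of SALL4-delN12, 0 an H3K27ac peak of SALL4-WT and 2 one of SALL4-delN12. Over all members these shares were 90.0%, 70.6%, 23.6%, 15.1% and 24.1%, and with so few members neither these counts nor the next ones set the named genes apart. Near the 10 genes with the most negative differences there were 10 members, of which 9 had a day 5 SALL4-WT peak, 6 a SALL4 peak of SALL4-WT, 1 a SALL4 peak of SALL4-delN12, 2 an H3K27ac peak of SALL4-WT and 1 one of SALL4-delN12. Their scores ran from 101.39 to 194.2, and 1 reached 150, against 7 of the 12. Open sites specific to SALL4-WT thus lay near genes whose RNA was lower in that form as well.

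Ntng2, which encodes netrin-G2, had the most negative mean difference, with 1.34, 6.84, 3.06 and 1.496 FPKM in SALL4-WT and 0.587, 21.3, 34.5 and 22.7 in SALL4-delN12. Sox17, an endoderm transcription factor, followed closely. Its RNA was 0.0238, 0, 0 and 0.224 FPKM in SALL4-WT and 0, 0.162, 4.88 and 16.2 FPKM in SALL4-delN12. Its member, chr1:4491673-4491963, lay in a coding exon 1.92 kb downstream of the start and had no early or CUT&Tag peak in either form. The member scored 105.45 at day 11, just above the rule's minimum. Its day 9 score was 52.71, near the lowest score in the lists, 50. Kit, the stem cell factor receptor, had 0.627 against 7.12 FPKM at day 11, and its member 75.7 kb upstream scored 194.2. The T-box genes Tbx1 and Tbx3 had 1.99 against 12.9 and 10.0 against 35.5 FPKM at day 11. The others were Ccr7, Pld4, Glipr2, Trim63 and Cgn, the last of which encodes the tight junction protein cingulin.

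**Figure D4:**
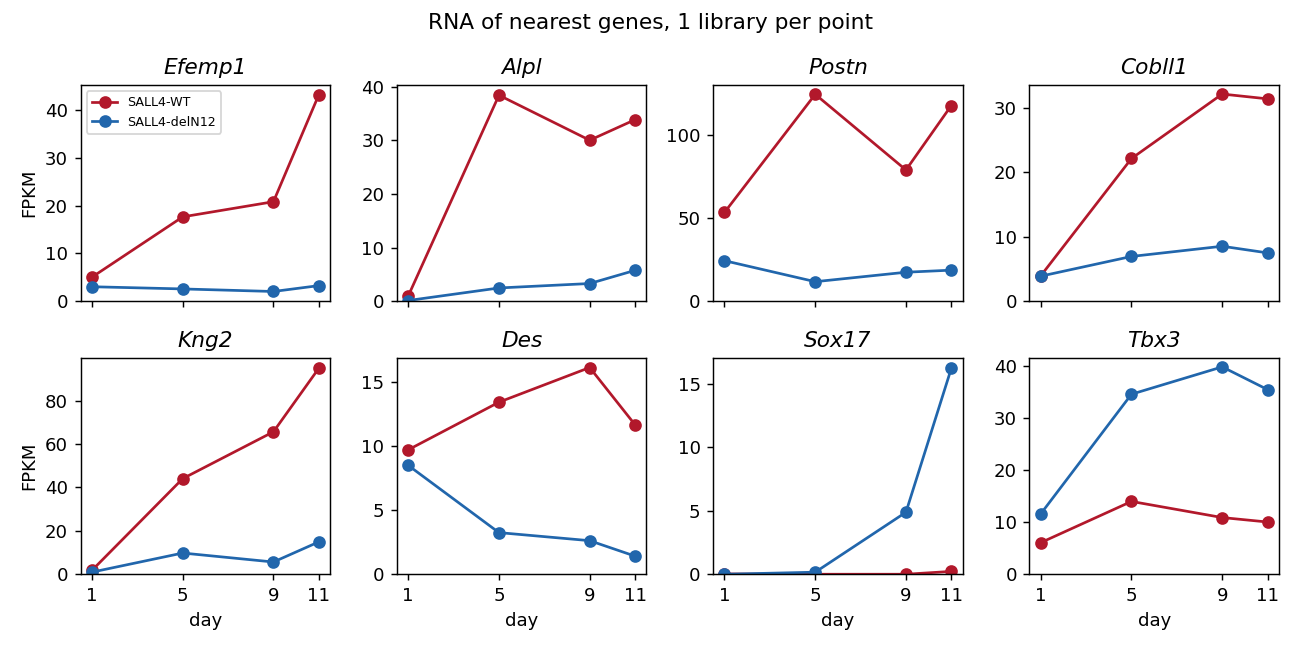
FPKM (y axis, linear, from 0) of 8 nearest genes at days 1, 5, 9 and 11 (x axis) in SALL4-WT and SALL4-delN12, each point 1 library. Efemp1, Alpl, Postn, Cobll1, Kng2 and Des were higher in SALL4-WT at days 5, 9 and 11, and Sox17 and Tbx3 were lower.

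Cobll1, an actin-associated protein gene, had the most members. Its 4 sites scored 146.23 to 361.02, 2 in introns and 2 about 55 kb upstream. All had a day 5 and none a day 1 SALL4-WT peak, and 1 had a SALL4-delN12 day 1 peak. Both upstream members overlapped an H3K27ac peak of SALL4-WT (score 106.1), and 1 of them a SALL4 peak of SALL4-WT (score 53.55). Its RNA was 3.93, 22.2, 32.2 and 31.5 FPKM in SALL4-WT and 3.88, 6.94, 8.53 and 7.50 in SALL4-delN12. The forms thus were alike at day 1 and apart from day 5. Of the 18 genes with 3 or 4 members, 4 (Arrdc4, Ccng2, Cobll1 and Lrig1) were higher in SALL4-WT by a log2 of 1 or more at day 11, 0 were lower and 13 lay between, and Rgs6 was under the FPKM minimum and not tested. By the same cut, 6.05% of protein-coding genes and 11.4% of nearest genes were higher. Lrig1, a negative regulator of EGF receptors, had 13.3 against 4.28 FPKM. Rcl1, Nrbf2 and Foxo3, with 3 members each, differed by log2 values of -0.18, -0.03 and 0.36.

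Of 126 listed marker genes, 10 (7.94%) were nearest to a member, where 5.87% of all protein-coding genes were. They were Sox17 and Klf4 of 12 primitive endoderm markers, Col1a1 and Postn of 12 fibroblast markers, Des of 10 muscle, Pparg and Lep of 10 adipocyte, Cdh5 of 10 endothelial and Elf5 of 10 trophoblast markers, and Fosl2 of 10 AP-1 genes. None was found among 20 pluripotency, 12 epithelial, 10 macrophage or 10 neural markers. Des, which encodes desmin, had 11.7 against 1.42 FPKM at day 11, whereas Col1a1 had 755 against 1065. Of 7 muscle markers tested at day 11, Des was the 1 that was higher by a log2 of 1 and 4 were lower, and the list summed to 78.9 FPKM in SALL4-WT and 244.4 in SALL4-delN12. Elf5 had at most 0.139 FPKM in any of the 8 libraries, and Lep was listed at 0 in all of them.

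The cultures differed in cell type markers at the same days. At day 11, 10 of 12 primitive endoderm markers, 9 of 11 tested epithelial and 9 of 9 tested macrophage markers were lower in SALL4-WT by a log2 of 1 or more, and 5 of 12 fibroblast markers were higher and 0 lower. Of all protein-coding genes, 6.25% were lower and 6.05% higher by as much. Also lower were 4 of 7 trophoblast, 4 of 8 pluripotency, 4 of 7 muscle and 2 of 3 neural markers tested, with 0, 1, 1 and 0 higher. Summed macrophage FPKM was 191.6 in SALL4-WT and 1123 in SALL4-delN12 at day 11, and the primitive endoderm sum was 72.6 and 478.7. The fibroblast sum was closer, at 2265 and 2036. Some fibroblast markers were lower in SALL4-WT by less than a log2 of 1. Among these, Col1a1 had 755 against 1065 FPKM, Thy1 63.4 against 91.5 and Pdgfrb 16.2 against 25.7. The part of these marker differences in the ATAC-seq and RNA differences of the sites was not tested.

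Exact letters of 18 motifs were searched on both strands in 50 bp and 200 bp around the centre of each site. In 50 bp, 43.0% of members held at least 1 of them, against 39.0% of all the peaks, 44.2% of the sites of both forms and 47.3% of the SALL4-delN12-specific sites. NFI proteins are transcription factors that bind the letters TTGGCA. The NFI letters were in 94 members (5.37%) in 50 bp and 361 (20.6%) in 200 bp, where all day 11 SALL4-WT peaks had 3.04% and 11.9%, the sites of both forms 3.21% and 13.2%, and the SALL4-delN12-specific sites 2.26% and 8.86%. The palindromic form, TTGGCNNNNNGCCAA, was in 1 member of 1749, so the result rests on the shorter letters. The orphan nuclear receptor motif AAGGTCA was in 7.15% of members in 200 bp, against 3.36% of all peaks, 5.08% of the sites of both forms and 3.15% of the SALL4-delN12-specific sites. The E-box CAGCTG was in 21.5%, against 16.5%, 17.6% and 15.8%, whereas the E-box CACCTG was in 8.23%, against 10.4%, 11.5% and 8.76%.

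AP-1 (TGANTCA) was in 26.2% of members in 200 bp, but the sites of both forms had 31.5% and all peaks 24.0%. C/EBP (TTGCACA) was in 6.80%, above 3.58% of all peaks and 4.23% of the SALL4-delN12-specific sites, and under 8.68% of the sites of both forms. The letters AGATAA, bound by GATA factors, and ACAATG, bound by SOX factors, were in 7.03% and 8.75% of members, against 5.28% and 7.83% of all peaks, 9.24% and 13.8% of the sites of both forms, and 18.7% and 21.9% of the SALL4-delN12-specific sites. CTCF (AGGGGGC) was in 1.77%, against 6.85% of all peaks, 2.399% of the sites of both forms and 2.26% of the SALL4-delN12-specific sites. A CTCF share under that of all peaks thus was not particular to the members. Members with a SALL4-WT SALL4 peak held AP-1 letters in 29.5% and those without in 18.3%, RUNX letters (TGTGGT) in 26.6% and 17.1%, NFI letters in 21.9% and 17.5%, and orphan receptor letters in 8.10% and 4.86%. Among the 249 members of score 200 or more, the share with AP-1 letters in 50 bp was 4.42%, against 10.3% of all members, whereas that of NFI was 6.43%. C/EBP letters were in 0 of those 249 and orphan receptor letters in 1.20%, against 2.17% and 2.06% of all members.

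**Figure D5:**
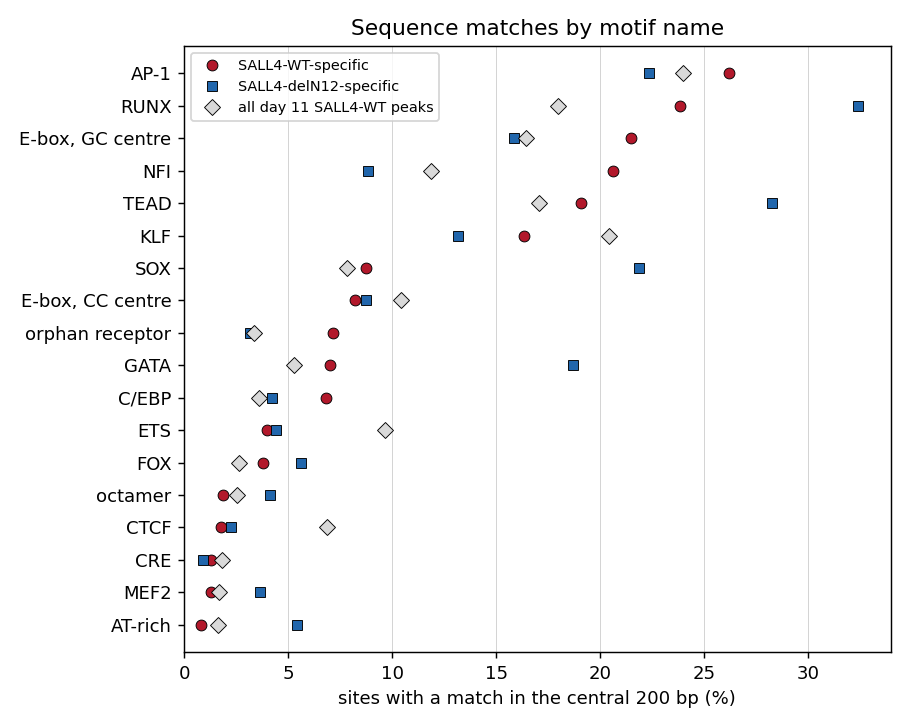
Share of sites (x axis, percent) with at least 1 match to each motif (y axis) in the central 200 bp, for 3 sets of sites. NFI was in 20.6% of the SALL4-WT-specific sites and 8.86% of the SALL4-delN12-specific sites, and GATA in 7.03% and 18.7%.

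RNA of factors that can bind these letters was read after the motif shares were seen. Of 20 genes read, Sall4 included, 6 were higher in SALL4-WT at day 11 by a log2 of 1 or more and 3 were lower, where 6.05% and 6.25% of protein-coding genes were, and the choice of genes allows no reading of that count. Nfib had 24.3, 15.6, 11.3 and 11.1 FPKM in SALL4-WT and 9.35, 4.42, 3.72 and 2.78 in SALL4-delN12. Nfia, Nfic and Nfix were also higher in SALL4-WT at day 11, by log2 values of 0.68, 0.86 and 0.74, each under 1. Nr2f2, an orphan nuclear receptor, had 12.2 against 4.38 FPKM at day 11, but Esrrb, another, had 2.00 against 6.49. Of the others read for the orphan receptor letters, Nr2f1 and Rora were higher in SALL4-WT at day 11 by log2 values of 1.24 and 1.09, and Esrra differed by 0.10. Of factors that bind E-boxes, Twist1 had 114 against 62.4 FPKM and Tcf12 36.2 against 19.8, each a log2 difference under 1, and Tcf3 had 21.3 against 26.8. At days 5 and 9 the Twist1 difference was 1.17 and 1.404. Of the C/EBP genes, Cebpb and Cebpd were higher in SALL4-WT at day 11 by log2 values of 1.13 and 1.51 and Cebpa differed by 0.13. C/EBP letters were rarer at the members than at the sites of both forms and more common than at the SALL4-delN12-specific sites. Gata4 had 1.51 against 29.3 FPKM at day 11, but Gata6 had 5.36 against 7.49, a log2 difference of -0.42. At days 1, 5 and 9 Gata6 was higher in SALL4-WT, by log2 values of 0.38, 0.58 and 0.30. Sall4 reads, which include the transgene where it shares the gene's sequence, were 290 FPKM in SALL4-WT and 428 in SALL4-delN12 at day 11.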

How the data were processed

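The members, the compared sets and the gene lists were chosen with earlier results of these data known. The authors trimmed reads with Trim Galore 0.6.4, mapped ATAC-seq and CUT&Tag reads to mm10 with Bowtie2 2.4.5, filtered them with SAMtools 1.16.1 and called peaks with MACS 1.4.2. They deposited peak lists whose score is the MACS p-value on a minus log10 scale, multiplied by 10, with merged CUT&Tag replicates. For RNA, the authors used HISAT2 2.2.1 and StringTie 2.2.1 and deposited FPKM per gene, so read depth is unknown. Lists held 78517 to 125470 ATAC-seq peaks.

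Peaks were joined by overlap of at least 1 bp with numpy 2.4.6 and pandas 2.3.3 in Python 3.11.15, and sequence was read with pysam 0.24.0. Annotation was GENCODE vM21 and sequence was GRCm38.p6. Overlap, rule and RNA counts were tested on simulated data. Named regions were the 10 of highest score, the 10 highest with SALL4 and H3K27ac in SALL4-WT, and promoter and threshold examples. Named genes were those nearest to them, the 10 largest and 10 smallest mean differences at days 9 and 11, genes with most members and marker genes. Motif factors were chosen after their motifs were seen. Counting intervals were 95% Clopper-Pearson.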

Additional observations from a re-analysis of the deposited data

How the results depend on the processing

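No paired analysis was made, and no result comes from a test. Every condition has 1 deposited peak list or RNA library, those of CUT&Tag merged from replicates by the authors. Pairing the RNA libraries by day would treat time points of a course as replicates. A share or median counts as moved when it left the 95% interval of its main value, and a count when it changed by over 1.5 times. The number of members was 6131 with no score minimum, 249 with a minimum of 200, and 964 when SALL4-delN12 peaks of days 1 and 5 also excluded. It was 2273 with lists of equal length, with 1523 of the 1749 kept. With the minimum of 200, shares with an early peak were 51.4% (SALL4-WT day 1), 97.6% (SALL4-WT day 5), 38.6% (SALL4-delN12 day 1) and 32.9% (SALL4-delN12 day 5), the SALL4 shares 81.9% and 27.7%, the promoter share 18.5%, and the RNA medians 0.22 at day 5, 0.21 at day 9 and 0.25 at day 11. With CUT&Tag peaks within 1 kb, shares were 74.0% and 30.5% for SALL4 and 17.0% and 28.2% for H3K27ac in SALL4-WT and SALL4-delN12. With equal lists, H3K27ac of SALL4-delN12 was at 7.66%. Promoters of 1 kb held 10.7%, and those of protein-coding genes alone, chosen after seeing the data, 6.69%. Without a filter on low values the RNA medians were 0, 0.0273, 0.0416 and 0.0757 at days 1, 5, 9 and 11, and centred on all genes the day 1 median was 0.00389. Any motif was in 88.3% with 200 bp, and with the minimum of 200 the AP-1 share in 50 bp was 4.42%, the C/EBP share 0 and the orphan receptor share 1.20%. No RNA median changed sign. The NFI palindrome was also added after seeing the data. A missing peak is a call under the caller's limit and does not show closed chromatin, and 1 list or library per condition gives no spread between cultures.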
